A study of Mus musculus with 3 samples.

Results

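The Myc, Max and Mxd network is a set of transcription factors that share a basic helix-loop-helix leucine zipper domain and bind DNA as pairs. The genes described here are Myc and Mycn, the common partner gene Max, the antagonist genes Mxd1, Mxd3, Mxd4, Mxi1, Mnt and Mga, and the Max-like partner gene Mlx. They were taken by gene name from a table of normalized counts; all 10 were found among its 23393 usable rows, and all 10 passed the abundance filter used below. The table holds 3 populations sorted from the marrow of C57BL/6 mice, and each is represented by 1 library. All came from the LSK compartment (lineage-negative, Sca-1+ and c-Kit+), which holds the stem cells and earliest progenitors of blood. The hematopoietic stem cells, or HSCs, were CD48- CD150+ and were divided into Map17-GFP+ and Map17-GFP- fractions, while multipotent progenitors (MPPs) were CD48+ CD150- and Map17-GFP-. Map17 is another name of Pdzk1ip1, and GFP is the green fluorescent protein that reports it; the sources used here do not give the age and number of the mice or how the reporter was built.

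Myc and its paralogue N-Myc bind DNA as heterodimers with Max at E-boxes, of which CACGTG is the best known, and activate genes of ribosome production, metabolism and cell growth. The Mxd proteins, Mxi1 and Mnt compete for Max, bind the same sites and recruit the Sin3 corepressor with histone deacetylases, so that Max serves activation and repression alike. Mlx pairs with Mxd1, Mxd4, Mnt and the glucose-responsive Mondo proteins instead of Max, so it is a parallel partner and not a Max-binding antagonist. In mouse HSCs, Myc is known for its part in the exit from the niche and in differentiation, Mycn for acting redundantly with it in proliferation and survival, and the ubiquitin ligase Fbxw7 for keeping Myc protein low in quiescent cells.

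The E-box is the site that the network itself reads, and RefSeq promoters (GRCm38.p6, the build mm10 names; 250 bases before to 50 bases after the annotated start) were available for 9 of the 10 genes, 11 windows in all; Myc had no entry. The promoters of Max, Mlx, Mnt and Mxd4 each held 1 CACGTG, which is 4 of 11 windows (36.4%), against 7.15% of 32851 promoters in the whole table. Mxi1 had more than 1 window, so by gene the site was in 4 of 9. The closer background is that of genes past the abundance filter with a promoter, of which 12.1% held the site. The stretches around these sites are shown 5′ to 3′ on the gene's strand because they are the promoters of the network that carry its own site, and capitals mark CACGTG.
Max: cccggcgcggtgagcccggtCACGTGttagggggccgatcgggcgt
Mlx: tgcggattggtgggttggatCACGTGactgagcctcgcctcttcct
Mnt: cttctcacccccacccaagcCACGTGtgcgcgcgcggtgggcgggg
Mxd4: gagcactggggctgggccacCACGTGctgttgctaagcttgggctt
The Max stretch lies at chr12:76962226-76962271 on the minus strand, the Mlx stretch at chr11:101087230-101087275 and the Mnt stretch at chr11:74830781-74830826 on the plus strand, and the Mxd4 stretch at chr5:34187904-34187949 on the minus strand. In Max the site spans the RefSeq start, from 3 bases before it to base 3 of the transcript. The GENCODE M21 start of Max, at 76962201, lies downstream, so by that annotation the site is outside the transcript. CACGTG lies 40 to 35 bases before the RefSeq start of Mlx, 123 to 118 before that of Mnt and 219 to 214 before that of Mxd4. Max is also the one of the 10 genes whose level differed most among the 3 libraries, so its whole window is given (chr12:76962199-76962498, minus strand), with CACGTG in capitals.
Max promoter: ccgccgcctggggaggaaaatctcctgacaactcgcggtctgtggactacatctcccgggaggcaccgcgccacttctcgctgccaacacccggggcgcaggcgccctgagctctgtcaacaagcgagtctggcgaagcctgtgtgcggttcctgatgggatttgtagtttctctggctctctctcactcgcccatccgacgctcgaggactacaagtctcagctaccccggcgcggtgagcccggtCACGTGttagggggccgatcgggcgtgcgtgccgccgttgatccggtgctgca
The Mycn promoter, of the member that differed most in the other direction, held no CACGTG on either strand. Other motifs were searched on both strands in the same windows. CACGCG was in 1 of the 11 (Mga; 9.27% of all promoters). TTTGGCGC, an E2F-type motif, was in 1, that of Mycn, which held it at 183 to 176 and at 168 to 161 bases before the start (0.514% of all promoters), while TTTCCCGC was in 0 (1.07%). CCAAT was in the windows of Mlx, Mxd1 and Mxd4, 3 of 11 (37.4% of all promoters). These matches describe letters in the windows and not sites bound in these cells.

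The values below are the authors' normalized counts per gene, called levels, with MPPs given first, then GFP- HSCs, then GFP+ HSCs. The summed levels of the libraries lay between 25311805 and 26689660 after the authors' scaling, and the read depth is unknown. The genes of the surface gates followed the labels: Slamf1, the gene of CD150, stood at 17, 2144 and 2219 and Cd48 at 7744, 168 and 64. Pdzk1ip1, the reporter's gene, stood at 290, 3673 and 5659, so the HSC fractions differed in its transcript by only 1.54-fold, and it did not divide the GFP- libraries from the GFP+ library. The 9 neutrophil markers summed to 877, 812 and 1590, and all 7 that passed the filter were higher in GFP+ than in GFP- HSCs, with a median of 0.88; the highest was Ngp, a granule protein gene, at 94, 165 and 499. The 6 B cell markers summed to 1341, 769 and 903, mostly from Cd79b (1109, 749 and 870), with Ms4a1 and Pax5 listed at 0 in both HSC fractions. The 8 T and NK cell markers summed to 2141, 773 and 736, mostly from Lck (1784, 399 and 370), with Cd3e and Cd3g listed at 0 in both HSC fractions. Monocyte markers (7 genes) summed to 13772, 6454 and 6675, erythroid markers (9 genes, with Hba-a1 and Hbb-b1 listed at 0) to 4931, 11182 and 8900 and megakaryocyte markers (7 genes) to 4740, 41556 and 47639; the part of such cells or programmes in the results below was not tested. Since each population had 1 library, there was no replicate spread to judge a difference by, and no test was made. Ratios are log2 of (level + 5) over the 11951 genes whose level averaged at least 50, folds are ratios of the levels themselves, and a gene is counted as apart at 2-fold on the log2 scale. In a bulk sample, fewer cells with a transcript and less of it per cell cannot be told apart.

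Max, which encodes the obligate partner of Myc and N-Myc, was lower in HSCs than in MPPs and lower still in GFP+ HSCs. The gene lies on chromosome 12 from 76937269 to 76962201 (GENCODE M21, GRCm38, minus strand). Its level was 1742 in MPPs and 985 in the GFP- fraction, and the GFP+ fraction had 396. Each of these values is below the one before it. GFP+ HSCs had 2.49-fold less Max than GFP- HSCs and 4.40-fold less than MPPs, and GFP- HSCs 1.77-fold less than MPPs. On the log2 scale the differences were -1.30, -2.12 and -0.82. Between the 2 HSC fractions, Max ranked 47th from the lowest of 11951 genes and lay outside the middle 95% of all genes, which ran from -0.64 to 0.58. It was the one member at least 2-fold lower there (1 of 10, 10%), against 0.87% of all genes tested, or 0.554% of the 10285 genes averaging 200 or more. No member was 2-fold higher in GFP+ than in GFP- HSCs, against 0.41% of all genes.

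**Figure D1:**
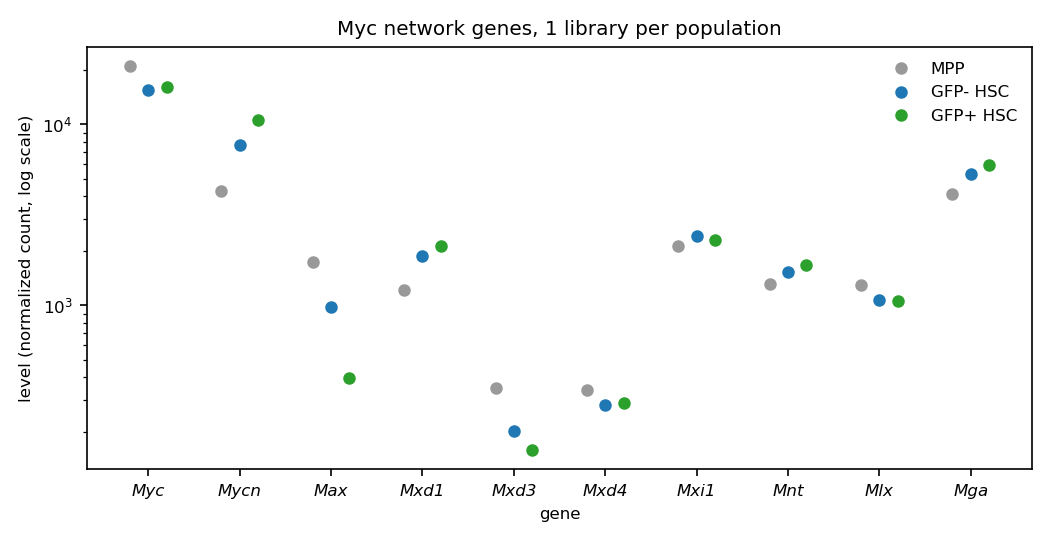
Levels (authors' normalized counts, log axis) of the 10 genes in the MPP, GFP- HSC and GFP+ HSC libraries, 1 point per library. Max steps down from 1742 to 985 to 396 while Mycn steps up from 4271 to 7721 to 10522, and the other genes vary less, Mxd3 the most among them at 349, 201 and 159.

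Few named genes lay close to Max over the 3 libraries, a count that rests on the same 3 levels as its ratios and is not separate from them. Of 10521 other named genes averaging 100 or more, only 1 lay within a distance of 0.2 of it. The measure was the Euclidean distance between log2 levels centred over the 3 libraries. Predicted and unnamed gene models were left out of this count and of those for Mycn and Mxd3 below. That gene was Kcna3, a voltage-gated potassium channel gene, at 2504, 1404 and 654 (distance 0.16). Dnajc6 (1637, 915 and 441; distance 0.21) and Myl10 (1634, 989 and 457; distance 0.21) were the next closest. The direction of Max was also that of division genes: all 20 S phase and all 20 mitosis genes were lower in each comparison. Their medians were -0.50 and -0.65 between the HSC fractions, beside -1.30 for Max. In GFP- HSCs against MPPs they were -0.71 and -1.31, beside -0.82, and in GFP+ HSCs against MPPs -1.27 and -1.92, beside -2.12. The part of division in the level of Max was not tested. The nearest tested neighbours of Max on the chromosome did not share its step between the HSC fractions. Fntb, a subunit of protein farnesyltransferase 15.9 kb away, stood at 932, 780 and 688, Churc1 at 894, 554 and 499, Fut8 at 9617, 11264 and 10653, and Gphn at 822, 761 and 850. Their log2 ratios of GFP+ to GFP- HSCs ran from -0.18 (Fntb) to 0.16 (Gphn).

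Myc and Mycn went in different directions between MPPs and HSCs. Myc (chromosome 15, from base 61985391 to base 61990374) was the most abundant member, with levels of 20946 in MPPs, 15568 in the GFP- and 16129 in the GFP+ fraction. The gene was 1.35-fold below MPPs in the GFP- fraction and 1.30-fold below them in the GFP+ fraction, and the 2 fractions differed by 1.04-fold. With the trend of the ratios on abundance removed by lowess, the log2 differences from MPPs shrank from -0.43 to -0.22 and from -0.38 to -0.16. Mycn (chromosome 12, from base 12936093 to base 12941914) had levels of 4271, 7721 and 10522. Relative to MPPs it was 1.81-fold higher in the GFP- and 2.46-fold higher in the GFP+ fraction, and the fractions differed by 1.36-fold. The last difference, 0.45 on the log2 scale, exceeded that of 94.9% of genes but lay inside the middle 95%. The order of the 3 levels of Mycn was the opposite of that of Max, and many genes had such a profile: 222 lay within a distance of 0.2 of Mycn. The 3 closest were Dgkh, a diacylglycerol kinase gene (99, 184 and 252), Csad, an enzyme gene of taurine synthesis (1116, 2048 and 2755), and Lynx1 (62, 115 and 157). The nearest tested neighbours of Myc were divided. The non-coding gene Pvt1 stood at 188, 135 and 104, also lower in HSCs. Trib1, 2328 kb away, stood at 1887, 1190 and 1538, in the order of Myc. The others, 9930014A18Rik (800, 1026 and 1145) and Asap1 (3406, 3940 and 3650), were higher in HSCs than in MPPs. Among the nearest tested neighbours of Mycn, Ddx1 stood at 6021, 4769 and 4220, the opposite order to Mycn. Smc6 (3506, 2672 and 2467) and Gen1 (383, 140 and 118), 1616 and 1670 kb away, were in that opposite order too. Nbas differed little, at 1152, 1167 and 1114.

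The antagonist genes were divided. Mxd1, which encodes the repressor known from granulocyte differentiation, was higher in HSCs, with levels of 1218, 1883 and 2124. That is 1.55-fold and 1.74-fold above MPPs for the 2 fractions, and 1.13-fold between them. Mxd3, whose expression is known from S phase of dividing progenitors, went the other way, at 349, 201 and 159. It was 1.74-fold (GFP-) and 2.20-fold (GFP+) below MPPs, and 1.26-fold lower in GFP+ than in GFP- HSCs. The direction of Mxd3 was that of the division genes: of 20 S phase genes, all 20 were below MPPs in the GFP- fraction with a median of -0.71, and of 20 mitosis genes all 20 were lower with a median of -1.31, beside -0.78 for Mxd3. In GFP+ against GFP- HSCs the medians of these lists were -0.50 and -0.65, and the value of Mxd3 was -0.33; the part of division in the level of Mxd3 was not tested. There were 488 genes within a distance of 0.2 of Mxd3, the closest being Pgap3 (490, 283 and 224), Ppil1 (3037, 1768 and 1400) and Krtcap2 (2807, 1622 and 1291). Of the exon bases of Mxd3, 105 overlap those of Prelid1 on the opposite strand, which stood at 2237, 1405 and 1257, and the library chemistry does not mark the strand, so reads of the shared stretch cannot be assigned.

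The remaining antagonists differed little. Mxi1, also called Mxd2, stood at 2137, 2401 and 2307, and Mxd4 at 341, 281 and 287. Mnt, the most broadly expressed antagonist of Myc, stood at 1319, 1534 and 1662. All 3 were within 1.26-fold between any pair of libraries, the widest being that of Mnt from MPPs to GFP+ HSCs (1.26-fold). Mga, a large protein with both a T-box and a Max-binding domain that recruits a Polycomb complex, was higher in HSCs, at 4134, 5334 and 5954, or 1.44-fold from MPPs to GFP+ HSCs. Mlx stood at 1302, 1067 and 1056, with the 2 HSC fractions 1.01-fold apart and both below MPPs. Mlx shares 385 exon bases with Psmc3ip (695, 436 and 377), Mxd4 shares 514 with an antisense RNA gene and Mxi1 shares 194 with Gm10197, all on the opposite strand, with the same limit on the reads.

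**Figure D2:**
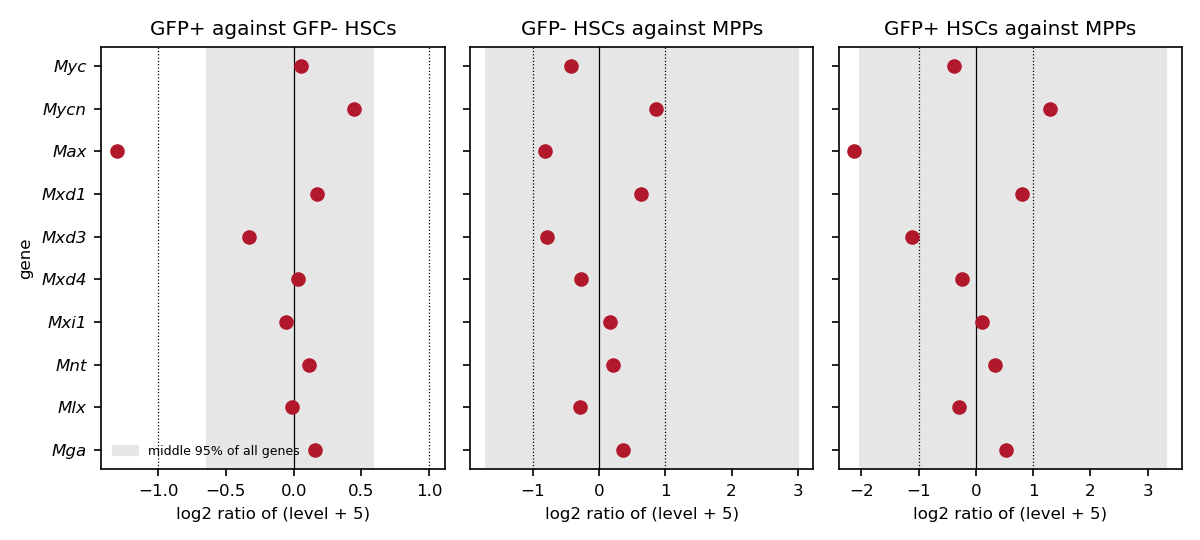
Log2 ratios of (level + 5) of the 10 genes in the 3 comparisons, 1 point per gene, with the grey band holding the middle 95% of 11951 genes and dotted lines at 2-fold. Max lies outside the band for GFP+ against GFP- HSCs (-1.30) and for GFP+ HSCs against MPPs (-2.12), and the other 9 genes lie inside it in each comparison.

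Counted over the members, 0 of 10 were 2-fold above and 0 were 2-fold below MPPs in the GFP- fraction, against 11.6% and 5.53% of all genes tested. At 1.5-fold, Mycn and Mxd1 were higher and Max and Mxd3 lower, 2 of 10 each way, against 19.4% and 13.4% of all genes. In GFP+ HSCs against MPPs, Mycn was at least 2-fold higher (1 of 10; 13.7% of all genes) and Max and Mxd3 at least 2-fold lower (2 of 10; 8.61% of all genes). At 1.5-fold the counts there were 2 and 2 of 10, against 22.3% and 18% of all genes. The shares for GFP- HSCs against MPPs were thus near or below the background. The median log2 ratio of the 10 genes was 0.04 between the HSC fractions, and relative to MPPs it was -0.05 in the GFP- and -0.07 in the GFP+ fraction, beside 0.011, -0.010 and 0.013 for all genes. Both medians relative to MPPs turned slightly positive with equal totals (0.019 and 0.0085), equal upper quartiles (0.026 and 0.0014) or the abundance trend removed (0.015 and 0.0097). The medians of all genes moved too, to 0.062 and 0.089 with equal totals and to 0.069 and 0.081 with equal upper quartiles. With the trend removed they were -0.00067 and -0.0014. The network as a list was therefore centred where all genes were, with 6, 5 and 5 of its 10 genes higher. The comparisons share libraries (MPPs in both comparisons with progenitors, GFP- HSCs in both steps), so their values for a gene are not independent.

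Levels of different genes can be set side by side only per transcript length, here the longest GENCODE M21 transcript of each gene. Per kilobase, Myc was highest in each library, at 8959, 6659 and 6899, followed by Mycn at 1597, 2887 and 3935. With median transcript lengths Myc was again highest in each library, but Mycn, at 1693 per kilobase, was number 6 in MPPs, after Max, Mga, Mlx and Mnt, and number 2 in both HSC fractions. With these median lengths Max was number 2 in MPPs, 7 in the GFP- and 8 in the GFP+ fraction, and Mga was number 3 in each library. By the longest transcripts Max was number 3 in MPPs at 897, number 4 in the GFP- fraction at 507 and number 8 in the GFP+ fraction at 204. In the GFP+ fraction Mlx (537), Mxi1 (458), Mxd1 (455), Mga (427) and Mnt (362) were above it by that length. Mxd3 (200.3, 115 and 91.3) and Mxd4 (73.7, 60.7 and 62.0) were numbers 9 and 10 in all 3 libraries. The order of Mga and Mnt in MPPs (297 and 287 per kilobase) and of Mxi1 and Mxd1 in GFP+ HSCs rests on differences of a few percent, and there is no replicate spread to set them against.

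Myc and Mycn together came to 10556, 9546 and 10834 per kilobase, so their sum varied less than either gene. Within that sum Mycn made up 15.1%, 30.3% and 36.3%. The 6 antagonists Mxd1, Mxd3, Mxd4, Mxi1, Mnt and Mga summed to 1544, 1774 and 1856 per kilobase, and the ratio of Myc plus Mycn to them was 6.84, 5.38 and 5.84 (2.15, 1.57 and 1.65 with median transcript lengths). The ratio of all 8 Max-binding partners to Max was 13.5 in MPPs, and the ratio was 22.3 in the GFP- and 62.2 in the GFP+ fraction. The 3 ratios differed mostly through Max, since the 8 partners summed to 12100, 11320 and 12690 per kilobase. These are ratios of transcripts, and protein was not measured here.

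**Figure D3:**
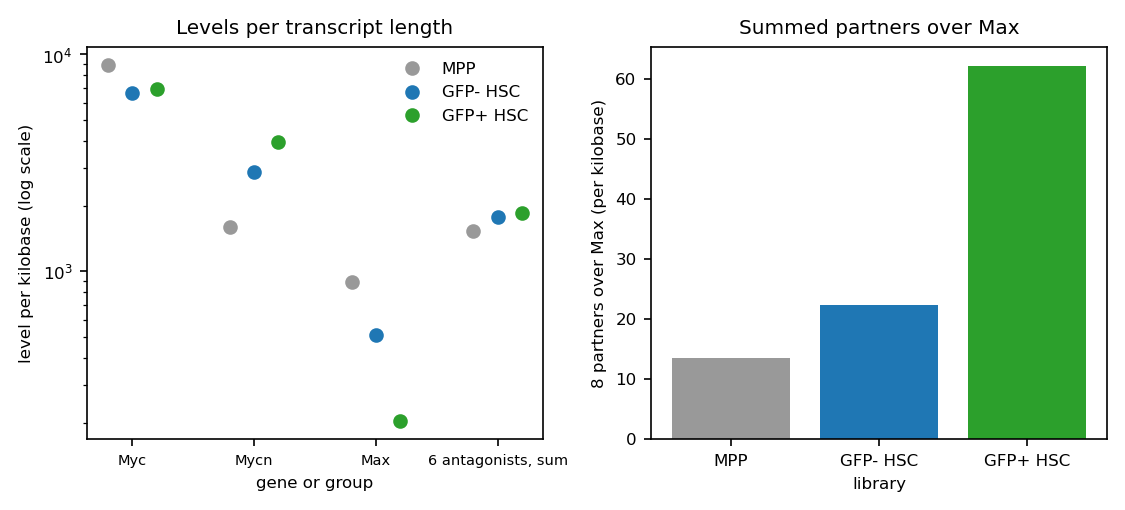
Left, levels per kilobase of transcript (log axis) of Myc, Mycn, Max and the sum of 6 antagonist genes in each library; right, the summed level per kilobase of the 8 Max-binding partners divided by that of Max. The partners stay between 11320 and 12690 per kilobase while the ratio to Max goes from 13.5 in MPPs to 22.3 in GFP- HSCs and 62.2 in GFP+ HSCs.

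Among related factors outside the 10 genes, L-Myc, whose gene Mycl the table calls Mycl1, had a level of 222 in MPPs but was listed at 0 in the GFP- fraction and at 2 in the GFP+ fraction. The genes of the Mondo proteins, which pair with Mlx, were at different levels. Mlxip (MondoA) stood at 2674, 3082 and 3275, and Mlxipl (ChREBP), known from liver and fat, at 12, 9 and 11, below the abundance filter.

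Of 14 coactivators and partners of Myc, 0 were 1.5-fold apart between the 2 HSC fractions. At that threshold 2.5% of all genes were higher and 3.05% lower, so 0 of 14 is near the background. In GFP- HSCs against MPPs the median of this list was -0.10, and 1 of 14 (7.14%, against 13.4% of all genes) was at least 1.5-fold lower: Ruvbl2, an ATPase of chromatin remodelling complexes, at 5071, 3212 and 2840. Actl6a, an actin-related subunit of such complexes, stood at 5424, 3621 and 3067, and Ccnt1, the cyclin of the elongation factor P-TEFb, at 2285, 2909 and 2739. In GFP+ HSCs against MPPs, 2 of 14 (14.3%) were at least 1.5-fold lower, against 18% of all genes.

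Corepressor genes of the Sin3 and histone deacetylase complexes had a median of -0.19 in GFP- HSCs against MPPs, with 5 of 14 higher and 9 lower. Sap30, a Sin3 subunit, stood at 1884, 985 and 926, and Suds3, another, at 3149, 2025 and 1859, the 2 lowest ratios of that list. Arid4a (2651, 2860 and 3318) and Arid4b (2057, 2545 and 2576), also Sin3 subunits, were the 2 highest. Sin3a itself stood at 3974, 3324 and 3176. Partners of Mga in its Polycomb complex had a median of -0.18, with 4 of 9 higher: Tfdp1, the dimer partner of E2F factors, stood at 4961, 2974 and 2341, and Yaf2 at 1547, 2094 and 2070. Genes that act on Myc protein had a median of -0.14, and 0 of 14 were 1.5-fold apart in either direction in that comparison, against 19.4% of all genes higher and 13.4% lower. Fbxw7 stood at 790, 858 and 954, Skp2, a ligase subunit that also targets a cell cycle inhibitor, at 1085, 900 and 701, and Usp36, a deubiquitinase of Myc, at 1799, 2309 and 2582. Set, an inhibitor of a phosphatase that destabilises Myc, stood at 5530, 3818 and 3471. In GFP+ HSCs against MPPs, 3 of 14 corepressor genes (21.4%) were at least 1.5-fold lower, against 18% of all genes. The counts there were 3 of 9 for the partners of Mga (33.3%) and 3 of 14 for genes acting on Myc protein (21.4%). In each of these lists 0 were 1.5-fold higher, against 22.3% of all genes.

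Growth genes known as induced Myc targets were lower in HSCs than in MPPs. Of 34 such genes, 31 were lower in GFP- HSCs, with a median of -0.45 (1.37-fold) beside -0.010 for all genes. At 1.5-fold, 12 of 34 (35.3%) were lower, against 13.4% of all genes, and 0 were 2-fold lower, against 5.53%. Hspe1, a mitochondrial chaperonin, stood at 785, 430 and 311 and Cdk4, the kinase of early cell cycle entry, at 17299, 10027 and 8481, the 2 lowest ratios. Ppan, a ribosome biogenesis gene (4044, 5026 and 5125), and Ccnd2, the cyclin D2 gene (8406, 10218 and 11512), were the 2 highest.

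In GFP+ HSCs against MPPs, 31 of 34 targets were lower with a median of -0.61, and 18 of 34 (52.9%) were at least 1.5-fold lower, against 18% of all genes. At 2-fold, 5 of 34 (14.7%) were lower, against 8.61% of all genes. These 5 were Hspe1, Nme1 (5873, 3450 and 2585), Pa2g4 (6639, 3982 and 3174), Npm1, the nucleolar protein nucleophosmin (7464, 4407 and 3576), and Cdk4; all but Hspe1 and Cdk4 are named after their values were seen. Between the 2 HSC fractions 28 of 34 were lower in GFP+ HSCs, but the median was only -0.14 and 0 were 1.5-fold lower, against 3.05% of all genes. Tert, the telomerase gene, was the highest ratio there, at 256, 283 and 375. The step of the targets between the fractions was thus small beside that of Max (-1.30), while Myc itself was 0.05 higher. S phase and mitosis genes were lower in the same comparisons, by medians of -0.71 and -1.31 in GFP- HSCs against MPPs, and the part of division in the target list was not tested.

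**Figure D4:**
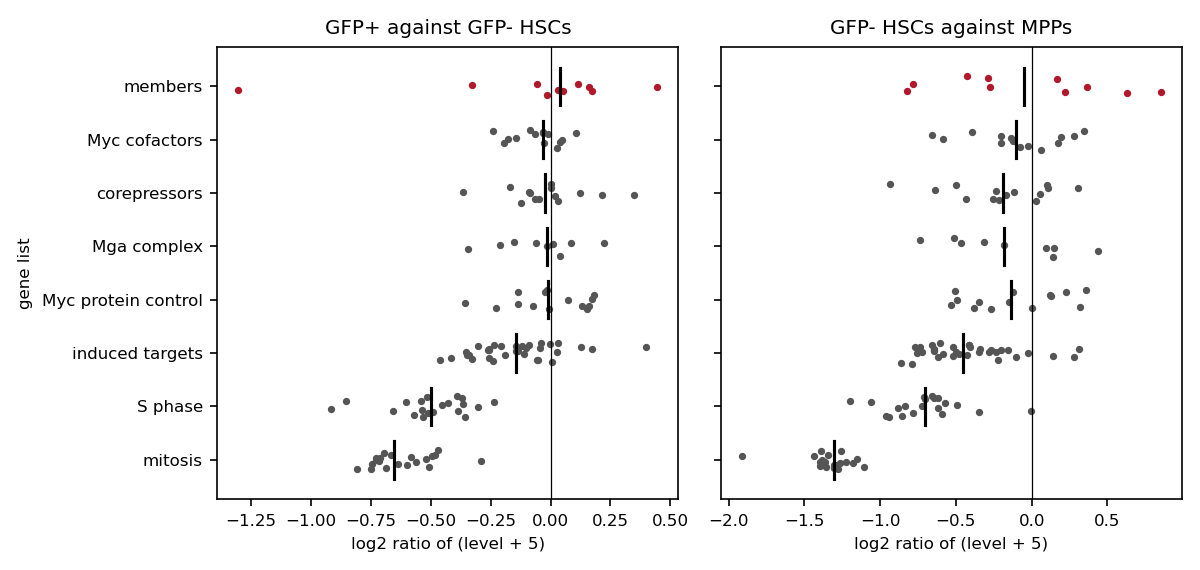
Log2 ratios of (level + 5) for the 10 members and 7 other gene lists, 1 point per gene that passed the filter, with the median of each list as a bar, for GFP+ against GFP- HSCs (left) and GFP- HSCs against MPPs (right). Max is the member farthest left in the left panel (-1.30), and in the right panel the induced targets (-0.45), S phase (-0.71) and mitosis genes (-1.31) have medians below those of the cofactor lists.

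Genes known as repressed by Myc did not move as 1 group. Of 10, 7 passed the filter, and in GFP- HSCs against MPPs 3 were higher and 4 lower, with a median of -0.15. In GFP+ against GFP- HSCs 2 were higher and 5 lower, with a median of -0.39. GFP+ HSCs against MPPs also had 2 higher and 5 lower, with a median of -0.39. There 3 of 7 (42.9%) were at least 1.5-fold lower, against 18% of all genes, and 1 of 7 (14.3%) higher, against 22.3%. Cdkn1a, a cell cycle inhibitor gene, stood at 1912, 1667 and 1273. Ndrg2 had levels of 325, 1178 and 1490. Itgal, the integrin chain of LFA-1, ran the other way at 4691, 234 and 76. Ndrg1 stood at 4665, 5993 and 4125, and the cell cycle inhibitor gene Cdkn1b at 311, 242 and 173. Cdkn2b, Gas1 and Cdh2 were listed at 0 in MPPs and at 18 or less in both HSC fractions.

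The site was also counted over all genes. Among genes past the filter with a promoter in the table, 1087 held the site and 7907 did not. Their median log2 ratios were -0.018 and -0.015 from MPPs to the GFP- fraction and 0.0031 and 0.0073 for GFP+ against GFP- HSCs. Between the HSC fractions, 0.92% of the genes with the site, Max among them, and 0.835% of those without were 2-fold lower in GFP+ HSCs, and 0.276% and 0.405% were 2-fold higher. Relative to MPPs, the genes with the site had smaller 2-fold shares than those without. In the GFP- fraction 3.31% against 5.39% were lower and 8.65% against 11.3% higher, and in the GFP+ fraction 6.90% against 8.54% were lower and 10.9% against 13.2% higher. No test was made of these shares.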

How the data were processed

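RNA of 3 sorted mouse populations was measured with 1 library each. TRIzol and a PicoPure kit yielded the RNA, and a SMART-seq kit, which does not mark the strand, the cDNA (per the labels' protocols). STAR, DESeq2 and mm10 are named in the submitters' processing notes; the sources used here do not give versions, annotation, counter or any pooling. The values deposited by the authors are normalized counts rounded to whole numbers, treated as a score because reads could not be recovered, so no count model was fitted and depth is unknown. Of 23420 rows, 27 with a date in place of a symbol (0.212% of the levels) were left out. Ratios used a pseudocount of 5 and genes whose level averaged at least 50; no p-value was computed. The members and the 16 other gene lists were chosen with earlier results of these data known. Named genes were the members, 3 related factors, the 2 highest and 2 lowest ratios of GFP- HSCs against MPPs in lists described by name (mean level at least 100), and the 3 most alike genes of members spanning at least 1 on the log2 scale; others (Fbxw7, Skp2, Sin3a, Tert and genomic neighbours among them) were named for their role or after their values were seen. Not every gene the rule takes is reported here. All 202 listed symbols matched the table by symbol or RefSeq synonym. As alternatives, the pseudocount was set to 1 or 20, the minimum mean to 10, 200 or none, totals or upper quartiles were made equal, the lowess trend on abundance was taken out, and a 1.5-fold threshold and median transcript lengths were tried. The calculation was tested on simulated data. Python 3.11.15, numpy 2.4.6, pandas 2.3.3, statsmodels 0.14.6 and matplotlib 3.10.9 were used.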

Additional observations from a re-analysis of the deposited data

How the results depend on the processing

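No paired analysis was possible because each population had 1 library, and for the same reason no replicate could be left out. Of 240 member ratios under 8 other settings (30 ratios in all), 1 changed sign, that of Mxd4 for GFP+ against GFP- HSCs, from 0.030 to -0.00075 with the abundance trend removed. The medians of the 10 genes relative to MPPs changed sign with equal totals, equal upper quartiles or the trend removed, each by less than 0.1. In no setting did rescaling move the median of all genes by more than 0.1. The counts at 2-fold changed in GFP- HSCs against MPPs with the trend removed, where Mycn reached 1.01 and 1 member was 2-fold higher. At a 1.5-fold threshold, 2 members were higher and 2 lower in GFP- HSCs against MPPs, and 2 were higher in GFP+ HSCs against MPPs. With median in place of longest transcript lengths, the ratio of the 8 partners to Max was 8.47 in MPPs, and it was 14.7 in the GFP- and 40.2 in the GFP+ fraction, so the ratios were smaller and their order was that of the longest transcripts. Depth is unknown, so levels of a few counts, as for Mycl in HSCs, carry no interval.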
